A study of Mus musculus with 6 samples.

Results

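The genes described here encode the nuclear-encoded subunits of the mitochondrial respiratory chain and ATP synthase, in T cells that lack SAP and in wild-type (WT) T cells. They were chosen by symbol alone, as every measured gene whose symbol starts with Nduf, Uqcr, Cox4 to Cox8 or Atp5, together with Sdha to Sdhd. The rule gave 90 of the 18193 genes measured. Complex I has 44 of them, complex II 4, complex III 8, complex IV 17 and complex V 17. The Nduf symbols include 8 assembly factors (Ndufaf1 to Ndufaf8), which help to build complex I without being part of it. The symbol Ndufa4 is counted here with complex I, although its protein is now placed in complex IV.

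Complexes I and II pass electrons from NADH and from succinate to coenzyme Q, complex III passes them on to cytochrome c, and complex IV passes them to oxygen. Complexes I, III and IV pump protons as they do so, and complex V uses the proton gradient to make ATP. Activated T cells raise glycolysis and mitochondrial respiration together as they divide, and the respiratory subunits are made from nuclear genes spread over many chromosomes.

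The 3 SAP-deficient arrays came from OT-II CD4 T cells that lack SAP, the adaptor protein encoded by Sh2d1a, and the 3 WT arrays from OT-II CD4 T cells with SAP. OT-II is a T cell receptor transgene that recognises an ovalbumin peptide. In both groups, naive CD4+CD44loCD62L+CD25- cells were sorted from spleen and lymph nodes. They were cultured for 3.5 days with that peptide and mitomycin C-treated splenocytes depleted of T cells. The Tfh-like conditions, named for follicular helper T cells, held IL-6 and IL-21 and antibodies to IFNγ, IL-12, IL-4 and TGF-β. The labels give no age or sex of the mice, and do not say how SAP was removed or whether the arrays of a group came from separate mice or cultures, so the p-values reflect only how these arrays scatter, which may be technical. Replicates were numbered within each group in the order of the samples.

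The values are RMA log2 levels, so a difference of 1 is a doubling, and all differences are SAP-deficient minus WT. Sh2d1a averaged 4.83 ± 0.69 in SAP-deficient arrays and 9.14 ± 0.53 in WT arrays (SD, n = 3 each), which fits the labels. The 6 arrays had medians of 5.73 to 5.76. The T cell markers measured, Cd3d, Cd3e, Cd3g, Cd4, Cd2, Cd5, Cd28 and Thy1, had mean levels between 9.63 and 12.9, whereas the 9 B cell markers measured lay between 4.88 and 7.02. Each respiratory gene was read from its probe set with the highest mean, and 80 of the 90 lay above the 75th percentile of probe-set means, which was 8.03. These are bulk RNA samples, in which fewer cells of a type and less RNA per cell cannot be told apart.

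No respiratory chain gene passed the test for a difference between SAP-deficient and WT cells. In limma's fit over all genes, 0 of the 90 had a Benjamini-Hochberg adjusted p under 0.05, as did 0% of all genes, and the smallest adjusted p among the 90 was 1.00. Sh2d1a, which differed by -4.31, had an adjusted p of 0.0501 in that fit, so the test did not call even the gene that defines the genotypes. At an unadjusted p under 0.05 the count among the respiratory genes was again 0 of 90, where 0.566% of all genes passed as higher and 0.748% as lower (1.31% in either direction). All 90 of the 95% intervals included 0. For 87 genes the interval lay within 0.5 of 0, and the most distant bounds were -0.53 and 0.53, so differences of that size or larger are outside the intervals.

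The differences were small and mostly of one sign. The mean was higher in SAP-deficient arrays for 74 of the 90 genes (82.2%), against 53.3% of all genes and 64.5% of the genes above the 75th percentile. Their median difference was 0.05, against 0.0078 for all genes and 0.03 for those brighter genes. Single differences ran from -0.16 for Ndufb4 to 0.20 for Cox8b, both read from probe sets below the 75th percentile. Only 14 genes exceeded 0.1 and 2 lay below -0.1. Among the 80 bright members 69 were higher on average, whereas among the other 10 members 5 were. The median rests partly on single arrays: without SAP-deficient replicate 1 it was 0.022, with 63 of 90 genes higher, and without WT replicate 3 it was 0.025, with 61 of 90 higher.

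**Figure D1:**
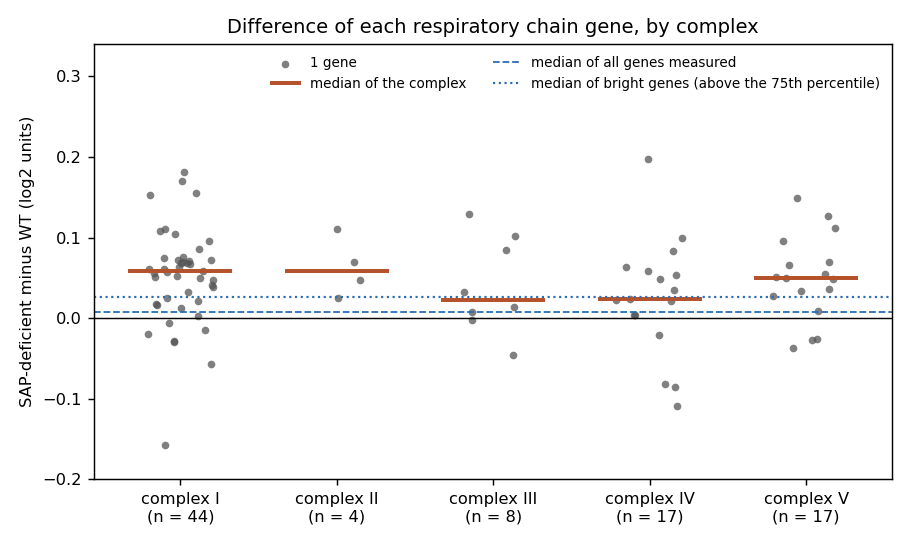
Difference in log2 level, SAP-deficient minus WT, of each of the 90 respiratory chain genes (points) by complex, with the median of each complex (bars) and the medians of all genes (dashed) and of genes above the 75th percentile (dotted). The points lie between -0.16 and 0.20, and the medians of the complexes lie between 0.02 and 0.06.

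Few genes separated the groups completely. All 3 SAP-deficient arrays lay above all 3 WT arrays for 4 of the 90 genes, Ndufs4, Ndufa8, Ndufb7 and Ndufb8, where 2.38% of all genes did so. For 0 of the 90 did all SAP-deficient arrays lie below all WT arrays, where 2.94% of all genes did. All 4 separated genes encode accessory subunits of complex I.

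The array levels of the set as a whole overlapped between the groups. Taking each gene relative to its own mean over the 6 arrays, the median over the 90 genes was 0.08, -0.004 and -0.003 in SAP-deficient replicates 1, 2 and 3, against 0.008, 0.0009 and -0.08 in WT replicates 1, 2 and 3. SAP-deficient replicate 1 was therefore the highest array and WT replicate 3 the lowest, while the other 4 arrays lay within a narrow band around 0. The genes above the 75th percentile were likewise highest in SAP-deficient replicate 1, at 0.04, and lowest in WT replicate 3, at -0.07.

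**Figure D2:**
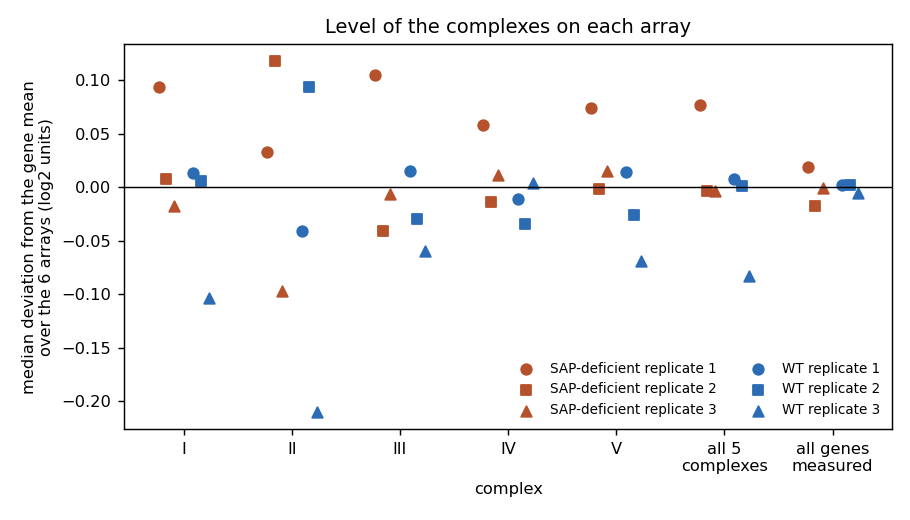
Median log2 deviation from each gene's mean over the 6 arrays, for each complex, for all 90 respiratory chain genes and for all genes, with each SAP-deficient array left of the WT arrays. Over the 90 genes the median is highest in SAP-deficient replicate 1 (0.08) and lowest in WT replicate 3 (-0.08).

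Arrays with the same replicate number resembled each other, although the labels state no pairing. For the 90 genes a median of 63.7% of the variance over the 6 arrays lay between replicate numbers and 12.0% between genotypes, against 66.9% and 6.36% over all genes. Over the genes above the 75th percentile these medians were 81.0% and 4.17%. The share between numbers was the larger for 76 members, a count that was not made over all genes. Replicate numbers form more groups than genotypes do, so their share tends to be the larger even without any effect. The mean of the pair was highest at number 1 for 54 members, at number 2 for 23 and at number 3 for 13, and it was lowest at number 3 for 47. The widest ranges between pair means were 0.53 for Cox7a1, 0.43 for Cox7c and 0.42 each for Sdha and Ndufaf5, all larger than any difference between genotypes.

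Taken number by number, the median difference of the 90 genes was 0.07 at number 1, 0.02 at number 2 and 0.08 at number 3, and 71, 54 and 68 genes were higher in the SAP-deficient array. Over all genes these medians were 0.02, -0.0089 and 0.0095, and over the genes above the 75th percentile 0.026, 0.0049 and 0.0425. The SAP-deficient array was the higher at each number for 37 of the 90 genes (41.1%), against 15.6% of all genes and 21.9% of the genes above the 75th percentile. It was the lower at each number for 2, Ndufa10 and Atp5b, where 13.1% of all genes were. The differences at number 2 were thus the smallest in the median.

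When the same-numbered arrays were fitted as a block in limma, 0 of the 90 genes passed at an adjusted p under 0.05, where 0.0055% of all genes did, and the smallest adjusted p of a member was 0.74. At an unadjusted p under 0.05, 8 members were higher and 0 lower, against 3.49% of all genes higher and 2.61% lower. Of the genes above the 75th percentile, 5.43% were higher by that rule with all pairs. Without the third pair, 2 members were higher, and the share over all genes was not counted for that fit. The 8 members higher with all pairs were Ndufa5, Ndufb2, Ndufs4 and Ndufs7 of complex I, Sdhb of complex II, Uqcr10 of complex III, and Atp5e and Atp5o of complex V. The difference of a gene is the same with and without the block, and only its error changes.

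**Figure D3:**
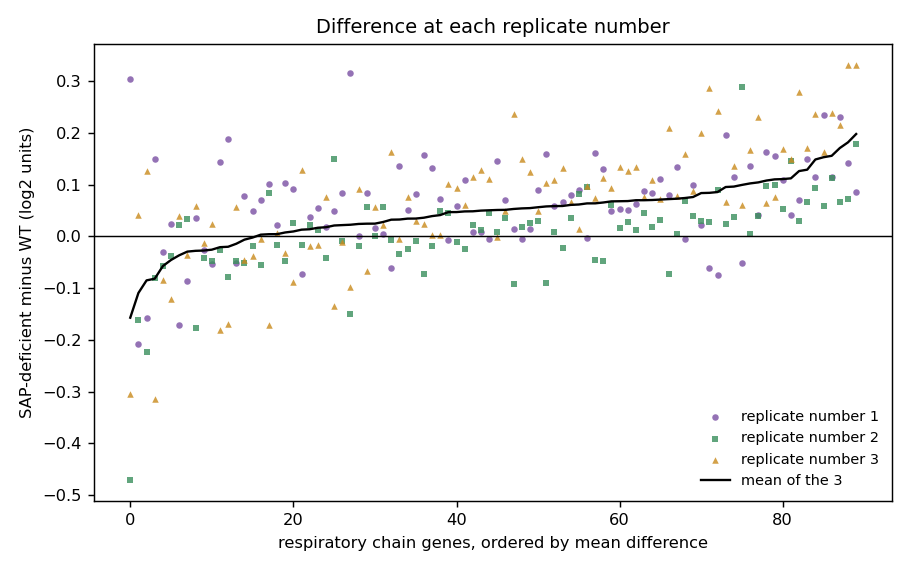
Differences in log2 level of the respiratory chain genes at each replicate number, SAP-deficient array minus the WT array of the same number, with genes ordered along the x axis by their mean difference (line). The medians over all 90 genes are 0.07, 0.02 and 0.08 at numbers 1, 2 and 3.

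Complex I, the NADH dehydrogenase, had a median difference of 0.06, with 37 of its 44 genes higher in SAP-deficient arrays. Without SAP-deficient replicate 1 that median was 0.019, and without WT replicate 3 it was 0.024. Its largest difference was that of Ndufa5, an accessory subunit of the peripheral arm that extends into the matrix. Ndufa5 stood at 11.01, 10.75 and 10.97 in SAP-deficient replicates 1 to 3, against 10.87, 10.68 and 10.63 in WT replicates 1 to 3. Each SAP-deficient array lay above the WT array of its number, yet SAP-deficient replicate 2 lay below WT replicate 1, so the groups overlapped. The difference was 0.18 with a 95% interval from -0.06 to 0.42.

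Ndufs4 encodes a small accessory subunit whose loss causes mitochondrial complex I deficiency in mice and people. It measured 10.66, 10.47 and 10.55 in SAP-deficient replicates 1 to 3, against 10.43, 10.41 and 10.34 in WT replicates 1 to 3. The groups did not overlap, and SAP-deficient replicate 2 was closest to the WT arrays. The difference was 0.17 (95% interval -0.04 to 0.38). This gene depends on the probe set: the mean of all its probe sets differed by -0.06. The probe sets of opposite sign were dim, at mean levels of 4.94 and 5.44 (-0.12 and -0.32), against 10.48 for the one used. Another, at a mean level of 7.57, differed by 0.02.

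Ndufb2, an accessory subunit of the membrane arm, measured 11.13, 11.00 and 11.03 in SAP-deficient arrays, against 11.01, 10.89 and 10.79 in WT arrays. Its groups overlapped, since SAP-deficient replicate 2 lay just under WT replicate 1. The difference was 0.16 (95% interval -0.05 to 0.36). Ndufa8, an accessory subunit with paired cysteines that is imported into the space between the membranes, stood at 11.13, 11.14 and 11.11 in SAP-deficient arrays, against 11.03, 11.10 and 11.02 in WT arrays. Its lowest SAP-deficient array lay just above its highest WT array, and the difference was 0.08 (95% interval -0.09 to 0.24). Ndufb7 and Ndufb8, both of the membrane arm, differed by 0.07 and 0.06.

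The core subunits of complex I, which carry the flavin and the iron-sulphur clusters, had a median difference of 0.07, and 5 of the 6 measured were higher on average in SAP-deficient arrays. Ndufs7, which holds the last iron-sulphur cluster before coenzyme Q, had levels of 11.18, 11.22 and 10.96 in SAP-deficient arrays, against 10.95, 11.16 and 10.79 in WT arrays. The groups overlapped, with both genotypes lowest at number 3, and the difference was 0.15 (95% interval -0.12 to 0.43). A second probe set of Ndufs7, at a mean level of 10.88 against 11.05 for the one used, differed by 0.03. Ndufs1, the largest core subunit, differed by 0.10 and Ndufv2 by 0.07. Ndufv1, the flavin-bearing subunit that takes electrons from NADH, averaged 10.7 in both groups and differed by -0.01. Among the 29 accessory subunits, 25 were higher and the median difference was 0.06. Among them Ndufa9, which helps join the arms, differed by -0.006, and Ndufab1, the mitochondrial acyl carrier protein, by 0.05.

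At the low end of complex I, Ndufb4 differed by -0.16 (95% interval -0.53 to 0.21). It was -0.03 without SAP-deficient replicate 2, -0.06 without WT replicate 3, -0.25 without SAP-deficient replicate 1 and -0.29 without WT replicate 1. Its probe set was dim, at a mean of 4.72, below the median probe set. It averaged 4.64 ± 0.23 in SAP-deficient arrays and 4.80 ± 0.24 in WT arrays (SD, n = 3 each), and the arrays overlapped. Ndufa10, an accessory subunit of the matrix side, measured 11.61, 11.66 and 11.61 in SAP-deficient arrays, against 11.64, 11.72 and 11.70 in WT arrays. The groups overlapped, although each SAP-deficient array was the lower at its number, and the difference was -0.06 (95% interval -0.20 to 0.09). Of the assembly factors Ndufaf1 to Ndufaf8, 7 of 8 were higher, and their median difference was 0.05. They ran from -0.03 for Ndufaf4 to 0.11 for Ndufaf8, the partner of Ndufaf5.

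Complex II, the succinate dehydrogenase that also serves the Krebs cycle, had a median difference of 0.06, with 4 of 4 genes higher on average. Sdhb, the iron-sulphur subunit, stood at 11.77, 11.98 and 11.71 in SAP-deficient arrays, against 11.66, 11.93 and 11.54 in WT arrays. Both genotypes were highest at number 2 and lowest at number 3, and the groups overlapped. The difference was 0.11 (95% interval -0.16 to 0.38). It was 0.03 without SAP-deficient replicate 2, 0.17 without SAP-deficient replicate 3, 0.22 without WT replicate 2 and 0.02 without WT replicate 3. Sdha, the flavin subunit, followed the same order, with 10.65, 10.79 and 10.42 in SAP-deficient arrays, against 10.60, 10.80 and 10.33 in WT arrays, and differed by 0.05. The membrane anchors Sdhc and Sdhd differed by 0.02 and 0.07. The median share of variance between numbers was 90.4% in complex II, against 63.7% in all 90 genes. In the other complexes this median ran from 57.7% in complex IV to 70.3% in complex I. Sdhd did not share this, with 36.1% of its variance between numbers. The median of complex II was -0.02 without WT replicate 3, which leaves its number 3 partner in the other group. It was 0.03 without SAP-deficient replicate 2, 0.12 without SAP-deficient replicate 3 and 0.13 without WT replicate 2. By replicate number the complex II medians were 0.07, 0.0094 and 0.10, with 4, 3 and 4 of 4 genes higher.

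Complex III, the cytochrome bc1 complex, had a median difference of 0.02, with 6 of 8 genes higher. The genes Uqcrc1, Uqcrc2 and Uqcrfs1, for the core proteins and the Rieske iron-sulphur protein, had a median difference of -0.0024, and 1 of 3 was higher. For the 5 small subunits the median was 0.08 and 5 of 5 were higher. The ranges of these subsets overlapped and their difference was not tested. Uqcrc1 measured 11.52, 11.44 and 11.49 in SAP-deficient arrays, against 11.49, 11.47 and 11.61 in WT arrays. WT replicate 3 was its highest array, and the difference was -0.05 (95% interval -0.21 to 0.12).

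Uqcr10, a small subunit near cytochrome c1, measured 11.71, 11.58 and 11.54 in SAP-deficient arrays, against 11.56, 11.51 and 11.37 in WT arrays. Its groups overlapped at a single point, where SAP-deficient replicate 3 lay under WT replicate 1, and the difference was 0.13 (95% interval -0.06 to 0.32), or 0.07 without WT replicate 3 and 0.08 without SAP-deficient replicate 1. Uqcr11, another small subunit, differed by 0.10 (0.03 without SAP-deficient replicate 1 and 0.06 without WT replicate 3) and Uqcrb, which contributes to the coenzyme Q site, by 0.08. By replicate number the complex III medians were 0.08, -0.0067 and -0.01. Without SAP-deficient replicate 1 the median of complex III was -0.0082, and it was 0.08 without SAP-deficient replicate 2, 0.06 without SAP-deficient replicate 3, 0.04 without WT replicate 1 and 0.04 without WT replicate 2.

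Complex IV, cytochrome c oxidase, had a median difference of 0.02, with 13 of 17 genes higher. That median was 0.05 without SAP-deficient replicate 2, 0.05 without WT replicate 1 and 0.04 without WT replicate 2. The nuclear subunits surround a core encoded by mitochondrial DNA, and several exist as paralogs used in different tissues. The 7 tissue-restricted paralogs Cox4i2, Cox6a2, Cox6b2, Cox7a1, Cox7b2, Cox8b and Cox8c all had levels below the 75th percentile. Counted with Ndufa4l2, the paralog of Ndufa4, 4 of 8 were higher and the median difference was -0.01. Of the other 10 complex IV genes, 9 were higher and the median difference was 0.05.

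Cox4i1, the common form of subunit 4, stood at 12.89, 12.81 and 12.83 in SAP-deficient arrays, against 12.81, 12.82 and 12.80 in WT arrays. The arrays overlapped and the difference was 0.03 (95% interval -0.07 to 0.14). Cox6a1, the common form of subunit 6a, varied little, with 13.42, 13.42 and 13.44 in SAP-deficient arrays, against 13.40, 13.44 and 13.43 in WT arrays, and a difference of 0.0042. Cox5a and Cox5b, which encode the subunits 5a and 5b, differed by 0.05 and 0.06, and Cox6c by 0.08.

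Cox8b, a form of subunit 8 known from heart and skeletal muscle, had the largest difference of the 90, on a probe set below the 75th percentile. It stood at 6.30, 6.27 and 6.13 in SAP-deficient arrays, against 6.21, 6.09 and 5.80 in WT arrays. The groups overlapped, with WT replicate 3 apart from the rest, and the difference was 0.20 (95% interval -0.13 to 0.52). Without WT replicate 3 it was 0.08, below the differences of several other members. Cox8a, the common form, differed by 0.06. At the other end Cox8c, known from testis, differed by -0.11 and Cox4i2, the form linked to low oxygen, by -0.09. Cox7a2l, which joins complexes III and IV into supercomplexes, measured 11.85, 11.78 and 11.86 in SAP-deficient arrays, against 11.71, 11.81 and 12.04 in WT arrays, and WT replicate 3 was the highest. Its differences of 0.14, -0.03 and -0.18 at numbers 1, 2 and 3 had opposite signs. Cox7c was read from a probe set at a mean level of 7.74, under the 75th percentile, and differed by 0.10.

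Complex V, the ATP synthase, had a median difference of 0.05, with 14 of 17 genes higher. The median was 0.03 without SAP-deficient replicate 1 and 0.03 without WT replicate 3. Atp5o, which encodes the protein that ties the catalytic head to the peripheral stalk, had the lowest p of the 90 in the blocked fit. It measured 11.53, 11.42 and 11.47 in SAP-deficient arrays, against 11.42, 11.32 and 11.24 in WT arrays. The groups overlapped only in that SAP-deficient replicate 2 lay just under WT replicate 1, and the difference was 0.15 (95% interval -0.03 to 0.33). Atp5md, a small membrane subunit, differed by 0.13 (0.05 without WT replicate 3), and Atp5mpl, another, by 0.10.

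In the F1 head, which binds the nucleotides, 4 of 5 genes were higher and the median difference was 0.03. Atp5e, its smallest subunit, stood at 11.90, 11.81 and 11.84 in SAP-deficient arrays, against 11.85, 11.66 and 11.69 in WT arrays. The WT replicate 1 array lay among the SAP-deficient ones, and the difference was 0.11 (95% interval -0.06 to 0.28). The catalytic subunit Atp5b measured 12.85, 12.75 and 12.78 in SAP-deficient arrays, against 12.87, 12.79 and 12.79 in WT arrays. It was lower in the SAP-deficient array at each number, with differences of -0.03, -0.04 and -0.01, and its mean differed by -0.03 (95% interval -0.15 to 0.09). The noncatalytic Atp5a1 differed by 0.03. The 3 genes of the c ring, which turns in the membrane, had a median difference of 0.04, and Atp5pb, of the peripheral stalk, had the lowest difference in complex V, -0.04.

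**Figure D4:**
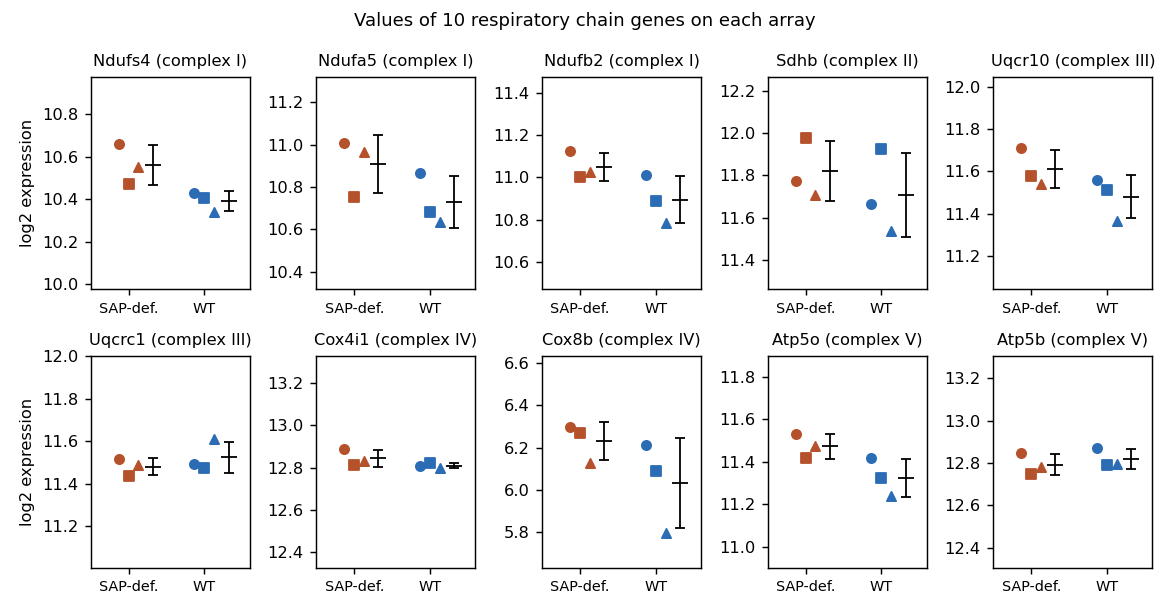
Log2 level of 10 respiratory chain genes in each array, with SAP-deficient arrays left of WT arrays, circles, squares and triangles for replicates 1, 2 and 3 and bars for the mean and SD (n = 3). Each panel spans 1 log2 unit, and only Ndufs4 among these has all SAP-deficient arrays above all WT arrays.

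Promoter sequences from RefSeq (build GRCm38.p6) were matched for 74 of the 90 genes, taking the 250 bases before each start site. They are shown for Ndufa8 and Ndufs4, whose arrays did not overlap, for Atp5o, which had the lowest blocked p, and for Atp5h, a peripheral stalk gene with both kinds of motif. The windows are chr2:36049339-36049588 for Ndufa8, chr13:114388095-114388344 for Ndufs4, chr16:91931631-91931880 for Atp5o and chr11:115419920-115420169 for Atp5h, all on the minus strand and written 5′ to 3′. Capitals mark matches to the motifs searched.
Ndufa8: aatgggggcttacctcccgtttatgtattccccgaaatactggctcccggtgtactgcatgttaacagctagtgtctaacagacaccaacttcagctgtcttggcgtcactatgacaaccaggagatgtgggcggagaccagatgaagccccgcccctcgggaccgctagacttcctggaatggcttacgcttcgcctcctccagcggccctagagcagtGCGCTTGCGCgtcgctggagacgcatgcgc
Ndufs4: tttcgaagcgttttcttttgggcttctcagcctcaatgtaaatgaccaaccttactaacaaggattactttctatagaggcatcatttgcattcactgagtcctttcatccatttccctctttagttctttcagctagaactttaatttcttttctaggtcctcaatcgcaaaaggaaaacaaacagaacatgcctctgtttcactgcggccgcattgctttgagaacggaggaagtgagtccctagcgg
Atp5o: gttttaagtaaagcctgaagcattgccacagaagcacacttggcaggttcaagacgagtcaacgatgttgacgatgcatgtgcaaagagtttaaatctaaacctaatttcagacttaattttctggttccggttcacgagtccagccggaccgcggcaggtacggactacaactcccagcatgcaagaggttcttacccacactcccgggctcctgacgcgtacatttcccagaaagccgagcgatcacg
Atp5h: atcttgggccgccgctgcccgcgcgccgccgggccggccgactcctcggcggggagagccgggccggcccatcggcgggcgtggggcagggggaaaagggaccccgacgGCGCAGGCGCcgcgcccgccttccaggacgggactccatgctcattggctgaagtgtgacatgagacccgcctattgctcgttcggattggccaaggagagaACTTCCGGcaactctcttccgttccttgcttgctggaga

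The motifs, searched on both strands, were those of NRF1 (GCGCA and GCGC separated by any base N), a regulator of respiratory genes, of ETS factors such as GABP (CCGGAAGT) and of YY1 (AAGATGGC), and the TATA box (TATAAA). The NRF1 motif lay in the windows of 12 of the 74 genes (16.2%), against 7.01% of 14368 measured genes with a promoter. The ETS motif lay in 3 (4.05%, against 4.98%), the YY1 motif in 1 (1.35%, against 2.05%) and TATAAA in 7 (9.46%, against 10.5%). In Ndufa8 the capitals are an NRF1 match, and in Atp5h an NRF1 and an ETS match, whereas none of these letters occur in the windows of Ndufs4 and Atp5o. Members with the NRF1 motif had a median difference of 0.06, with 10 of 12 higher, and those without it 0.05, with 52 of 62 higher. A match is a description of letters, not a bound site.

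Agreement between probe sets was partial. Of the 51 respiratory genes with several probe sets, 29 had differences of one sign in all of them. Of the 89 probe sets that were not used to represent their gene, 61 were higher on average in SAP-deficient arrays, and of the 58 of these above the 75th percentile, 46 were.

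Other mitochondrial gene groups were read in the same fit. In each of them 0 genes passed at an adjusted or an unadjusted p under 0.05, where 0% and 1.31% of all genes did. Of all genes 53.3% were higher on average in SAP-deficient arrays (median difference 0.0078). Of the genes above the 75th percentile 64.5% were (median difference 0.03). Of the Krebs cycle genes 17 of 19 were higher on average in SAP-deficient arrays, with a median of 0.05. For regulators of mitochondrial biogenesis 11 of 16 were higher (median difference 0.05), for the mitochondrial ribosome 51 of 76 (0.03) and for assembly factors outside the symbols above 25 of 36 (0.03). For import and dynamics 23 of 41 were higher (median difference 0.02), and for coenzyme Q and cytochrome c 9 of 15 (0.01). Cyc1, the cytochrome c1 subunit of complex III whose symbol the rule does not take, differed by 0.01, Cycs, cytochrome c itself, by 0.03, and Atpif1, the inhibitor of ATP synthase, by 0.0017. ND5, a complex I subunit and the only gene of mitochondrial DNA measured here, stood at 11.72, 12.16 and 12.27 in SAP-deficient arrays, against 11.92, 12.15 and 11.92 in WT arrays. The groups overlapped and the difference was 0.06.

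Some other genes moved with the replicate numbers or the genotypes. The 9 cell cycle genes measured were all higher on average in SAP-deficient arrays, with a median of 0.10, but their median differences at numbers 1, 2 and 3 were -0.15, -0.05 and 0.52. WT replicate 3 was the lowest array for the respiratory genes. Mki67, the proliferation marker, was also lowest there, at 9.98 against 10.57 to 10.83 in the other 5 arrays. Of those 5, Mki67 was lowest in SAP-deficient replicate 1, the highest array for the respiratory genes. At number 1 the median difference was 0.07 for the respiratory genes and -0.15 for the cell cycle genes. All 9 B cell markers measured were lower on average in SAP-deficient arrays (median -0.22), as were all 6 MHC class II genes (median -0.21). At numbers 1, 2 and 3 the medians were -0.11, -0.04 and -0.31 for the B cell markers. For the class II genes they were -0.09, -0.03 and -0.46, so both were largest in size at number 3. Of the macrophage and dendritic cell markers 5 of 10 were higher and 5 lower (median -0.03). Summed on the linear scale, the B cell markers came to 439 to 541 in SAP-deficient arrays, against 520 to 671 in WT arrays. Their median level of 5.77 was near the array medians of 5.73 to 5.76, so these sums may be largely background. The class II genes came to 2406 to 3389 in SAP-deficient arrays, against 2747 to 3467 in WT arrays. None of the cell cycle, B cell or class II genes passed the test, and their part in the differences of the respiratory genes was not tested.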

How the data were processed

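RNA levels were read from 6 Affymetrix mouse genome arrays, 3 of SAP-deficient and 3 of WT cells, grouped by the strain label. The deposited values are log2 expression levels made by the authors with Affymetrix Expression Console and RMA, per the submitters' processing notes. RMA corrects background, equalises the arrays' distributions and summarises each probe set. It compresses differences of dim probe sets and hides changes in total RNA per cell. Tool versions were not given in the sources used here. The number of arrays limits the precision.

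Of 45101 probe sets, 64 controls were left out. The platform annotation gave 1 gene for 34945, several for 932 and none for 9160, and 34741 were matched to RefSeq. The probe set with the highest mean represented each of 18193 genes, including the 90 members, which had 179 probe sets. Probe sets naming several genes were not used, among them 10 with a member symbol.

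limma 3.58.1 in R 4.3.3 was fitted with genotype alone over all 45037 remaining probe sets, moderated with an intensity trend, and p-values were adjusted over the genes by the Benjamini-Hochberg method. The fits with and without the block were also run on simulated arrays with known changes. Those changes were all larger than the differences of the members, so the simulation does not show how often differences of that size are called. Medians and counts over members are descriptions without a test. Same-numbered arrays deviated together over the probe sets of other genes, with correlations of 0.52, 0.73 and 0.60, whereas the other pairings gave -0.52 to -0.10. The numbers follow sample order, so the block they form is an alternative. The further alternatives were array weights, the moderation, leaving out each array, other ways to represent a gene, quantile normalizing a second time, centring arrays on their medians, and dropping dim probe sets.

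The members and lists were chosen with earlier results of these data known. Genes named in the text are the 8 members with the smallest p in each direction, the 2 with the largest difference in each direction in each complex, main subunits and assembly factors by role, and members whose groups did not overlap. Others named beside them, such as further subunits, were chosen after their values were seen.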

Additional observations from a re-analysis of the deposited data

How the results depend on the processing

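In the 20 alternatives tried, 0 respiratory chain genes passed at an adjusted p, and the smallest adjusted p of any of the 90 was 0.69, in the replicate block without the third pair. Apart from leaving out single arrays, the count higher in SAP-deficient arrays ran from 64 when a gene's probe sets were averaged to 76 with arrays centred on their medians. Over every probe set of the members it was 135 of 179. Of the 179, 1 higher and 1 lower had an unadjusted p below 0.05, where 0.566% and 0.748% of all genes did in the main fit. With the matched pairs as a replicate block, 8 genes were higher at an unadjusted p under 0.05, where 3.49% of all genes were. Without the third pair 2 members were. Leaving out single arrays gave 0 to 1 such gene, a count higher of 61 to 74, and medians of 0.022 to 0.067 over the 90 genes. The share of all genes at an unadjusted p was not counted without the third pair or without single arrays. The complex II median ran from -0.02 to 0.13 and that of complex III from -0.0082 to 0.08. A second quantile normalization set the median of all genes to -0.001, and centring set it to 0.02, with members at 0.04 and 0.06.

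Of 565 values of named genes, 25 turned sign, and the cause was not tested. Under a second quantile normalization these were Cox6a2 at -0.0063, Cox7a1 at -0.018, Ndufaf1 at -0.0013 and Ndufaf7 at -0.028. With arrays centred on their medians they were Ndufa9 at 0.0026 and Uqcrc2 at 0.0067, and with array weights Cox7a2l at 0.035, Ndufaf7 at -0.00020, Sdha at -0.0072, Sdhc at -0.0042 and Uqcrc2 at 0.0074. With a gene's probe sets averaged they were Cox5a at -0.00091, Cox6a2 at -0.057, Cox7c at -0.013, Ndufb8 at -0.013, Ndufs4 at -0.060 and Sdhc at -0.013. Without probe sets that may cross-hybridise they were Atp5pb at 0.012 and Cox7c at -0.13. In the replicate block without the third pair they were Cox6b2 at 0.035, Cox7a2 at -0.010, Cox7a2l at 0.059, Ndufa9 at 0.014, Ndufaf2 at -0.039 and Uqcrc2 at 0.015. Leaving out single arrays turned 20 genes, over ranges of -0.10 to 0.016 for Atp5pb, -0.22 to 0.0026 for Cox4i2, -0.0089 to 0.012 for Cox6a1, -0.14 to 0.12 for Cox6a2, -0.15 to 0.11 for Cox7a1, -0.021 to 0.059 for Cox7a2, -0.094 to 0.075 for Cox7a2l, -0.031 to 0.25 for Cox7c, -0.037 to 0.037 for Ndufa9, -0.050 to 0.11 for Ndufab1, -0.016 to 0.054 for Ndufaf1, -0.068 to 0.13 for Ndufaf2, -0.055 to 0.13 for Ndufaf3, -0.082 to 0.027 for Ndufaf4, -0.097 to 0.070 for Ndufaf7, -0.049 to 0.0061 for Ndufv1, -0.076 to 0.16 for Sdha, -0.066 to 0.10 for Sdhc, -0.023 to 0.010 for Uqcrc2 and -0.067 to 0.098 for Uqcrfs1. The 20 genes turned by leaving out single arrays all had differences under 0.1 in size with all arrays. Ndufs4, turned by averaging its probe sets, had a difference of 0.17.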

Other observations

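Among the 179 probe sets of the respiratory chain genes, 2 had an unadjusted p under 0.05 in limma's fit without the block, and both were dim and neither represented its gene. Of all genes, each read from 1 probe set, 1.31% had an unadjusted p under 0.05 in that fit, so these 2 do not stand out in number. A second probe set of Cox5b, at a mean level of 3.82, differed by 0.33 between SAP-deficient and WT arrays, whereas the bright probe set of that gene differed by 0.06. A second probe set of Ndufc2, at a mean level of 4.89, differed by -0.36, whereas the bright one differed by 0.03. Neither passed at an adjusted p, and both were 1.00 to 2 decimals.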
